A study of Mus musculus with 12 samples.

Results

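The core loop of the circadian clock is described here from 10 genes, chosen by name for their part in the loop, out of 47263 genes in a table of 12 mouse liver RNA sequencing libraries. The genes were the activators Arntl, Clock and Npas2, the cryptochromes Cry1 and Cry2, the period genes Per1, Per2 and Per3, and the nuclear receptors Nr1d1 and Nr1d2. The list was drawn up with earlier results of these libraries in view, among them a low Per3 in MET/CAT livers of wild type mice and a low Nr1d1 in knockout MET/CAT livers, so the calls below are descriptions of these libraries and not independent evidence. All 10 passed the filter on low values, which 13871 genes met. Npas2 met it through MET/CAT and WT libraries, since only 1 GFP library and only 1 KO library held a value of at least 10.

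The study asked what the deacetylase Sirt2 contributes to liver tumour formation. Its 4 groups, with 3 libraries each, were wild type livers given GFP (WT GFP), livers with a hepatocyte knockout of Sirt2 given GFP (KO GFP), wild type livers given the oncogenes MET and CAT (WT MET/CAT), and knockout livers given both oncogenes (KO MET/CAT). MET is the receptor of hepatocyte growth factor, and CAT is a beta-catenin labelled DN90, a form that resists degradation. Injection took place at an age of 6 to 8 weeks and tissue was collected after another 8 weeks. Transposon plasmids were delivered with a sleeping beauty transposase by a rapid injection of a large volume into the tail vein, and the EF1a promoter drove each oncogene. Groups follow the sample titles, since the treatment field names GFP for every WT and MET/CAT for every KO library. The promoter of the Cre, the exons deleted, the sex of the mice, the share of hepatocytes that took up plasmid and the hour of collection are not stated in the labels. The labels do not state that each replicate came from its own mouse, so the p-values rest on a spread between libraries that may be technical.

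In mammalian cells, Arntl (also called Bmal1) pairs with Clock or Npas2 and switches on the Per, Cry and Nr1d genes through E-boxes in their promoters. Per and Cry proteins then block that pair, and the Nr1d receptors (REV-ERB alpha and beta) repress Arntl and other genes at sites shared with the activating ROR receptors. In liver the loop gives daily rhythms to transcripts of sugar, lipid and bile acid metabolism, with Arntl and the Nr1d genes high at opposite times of day. Because transcripts of the loop change over the day, differences between groups in the hour of collection cannot be told apart from differences in plasmid or genotype.

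Promoter sequences show which of these control elements stand next to the start sites. RefSeq windows of 300 bases on GRCm38.p6, from 250 before to 50 after a start, were found for 9 of the 10 genes (13 windows), with none for Per2. On both strands, 5 sets of letters were searched: the E-box CACGTG, the variant E-box CACGTT, the D-box TTANGTAA, the cyclic AMP response element TGACGTCA and the ROR element core TAGGTCA. Of 32851 windows, 7.15% held the E-box, 4.68% the variant, 2.32% the D-box, 1.79% the cyclic AMP element and 2.61% the ROR core. A match was found in 6 of the 13 windows, of which Clock had 3 and Arntl and Per1 had 2 each. The share of all windows that hold any of the 5 was not computed, so this count is a description only. A match describes letters and not a site of binding, and no match overlapped another. The Per3 stretch is shown because Per3 had the lowest p of the members between plasmids and its window held 2 D-boxes. These letters are read by Dbp, Tef, Hlf and Nfil3, whose levels are given further down. A link between the D-boxes and the level of Per3 was not tested. The Cry1 stretch is shown because it held both E-box forms close together. Capitals mark the matches, and each stretch reads 5′ to 3′ on the strand of its gene.
Per3 promoter, chr4:151044666-151044915, minus strand: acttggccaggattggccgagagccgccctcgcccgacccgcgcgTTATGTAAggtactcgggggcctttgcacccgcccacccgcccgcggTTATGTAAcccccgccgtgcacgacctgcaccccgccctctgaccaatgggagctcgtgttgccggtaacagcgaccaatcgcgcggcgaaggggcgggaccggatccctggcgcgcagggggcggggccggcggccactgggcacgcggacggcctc
Cry1 promoter, chr10:85185055-85185304, minus strand: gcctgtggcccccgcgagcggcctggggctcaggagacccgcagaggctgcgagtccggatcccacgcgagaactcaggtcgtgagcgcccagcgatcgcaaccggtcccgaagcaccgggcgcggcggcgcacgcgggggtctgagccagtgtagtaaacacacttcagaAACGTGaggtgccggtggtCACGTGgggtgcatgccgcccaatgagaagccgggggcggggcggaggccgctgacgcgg

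The Per3 D-boxes ended 198 and 151 bases before the start. In Cry1 the variant E-box, read on the opposite strand, ended 74 and the E-box 55 bases before the start. The other matches, shown with their neighbouring bases for comparison of the letters, were an E-box in Per1 that ended 161 bases before the start, variant E-boxes in Cry2 and Nr1d1, and a ROR core from 31 to 37 bases after the start of Arntl.
Per1 E-box, chr11:69098771-69098800, plus strand: agcacccaagtcCACGTGcagggatgtgtg
Cry2 variant E-box, chr2:92434218-92434247, minus strand: acacatggtgggAACGTGagggggcggagc
Nr1d1 variant E-box, chr11:98775388-98775417, minus strand: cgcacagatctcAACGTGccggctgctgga
Arntl ROR core, chr7:113207529-113207558, plus strand: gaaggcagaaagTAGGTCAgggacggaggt

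Values are normalized reads, that is gene counts divided by 1 factor per library by the authors. Each read counted as 0.753 to 1.204 normalized reads, depending on the library, and the libraries held 18208879 to 24352961 reads, of which the 10 most abundant genes took 19.7% to 25.4%. Sirt2, the targeted gene, lay between 125.7 and 248.1 in the 6 KO libraries and between 725.8 and 1068 in the 6 WT libraries. The 9 hepatocyte markers, none at 0, summed to 2154000 to 3566000 normalized reads in every library. KO GFP replicate 3 stood apart from the others on the first principal component. In whole liver, fewer cells of a type and less RNA per cell cannot be told apart.

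Averaged over genotypes, MET/CAT livers had higher Arntl and Clock than GFP livers and lower Per2, Per3, Nr1d2 and, by a small margin, Cry2. In this average Arntl was 3.54 higher on the log2 scale and Per3 2.70 lower (log2 difference −2.70), with SE 0.52 and 0.33 (6 libraries against 6). A gene was called at an adjusted p under 0.05 from limma, a linear model fitted over all genes, on log2(normalized reads + 1), a scale that understates changes of low genes. By this test 6 of the 10 members passed, against 3.8% of all genes tested, 2 of them higher and 4 lower, against 2.4% and 1.4% of all genes. The GFP and MET/CAT libraries did not overlap for 4 members, Arntl, Cry2, Nr1d2 and Per3, against 2.49% of all genes. The median difference over the 10 members was −0.46, against 0.02 over all genes. The comparisons within WT and within KO livers used different libraries but 1 common estimate of the spread.

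**Figure D1:**
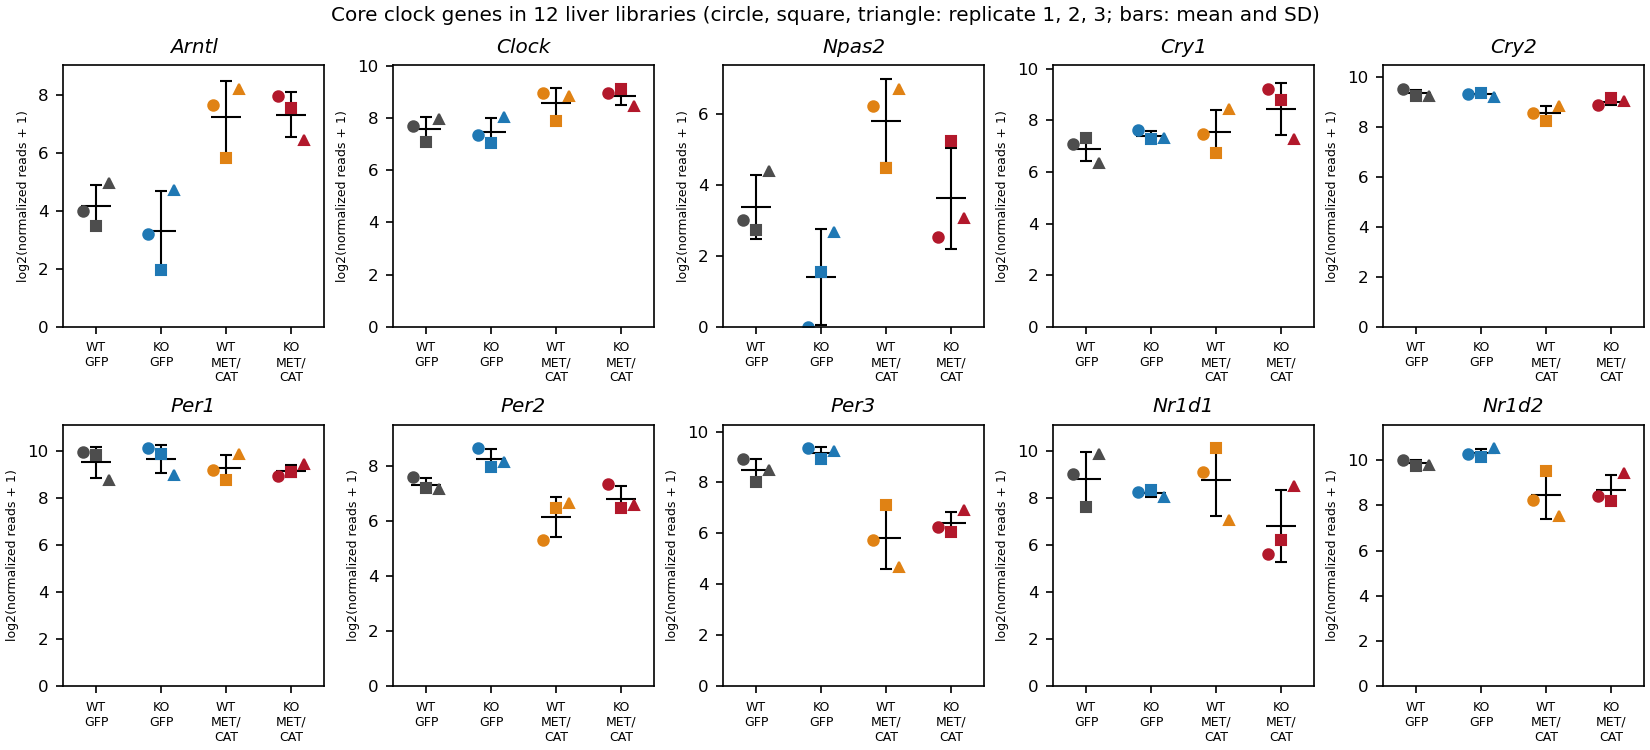
Level of the 10 core clock genes in each of the 12 libraries (vertical axis, log2 of normalized reads + 1; horizontal axis, the 4 groups). Points are libraries, and bars give the mean and SD of 3 libraries; all 6 MET/CAT libraries lie above all 6 GFP libraries for Arntl and below them for Per3, Nr1d2 and Cry2.

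Among the activators, Arntl (chromosome 7, 113207465 to 113314126, plus strand, GRCm38) was scarce in GFP livers. The WT GFP libraries had 14.96, 10.20 and 30.32 normalized reads, and the KO GFP libraries 8.282, 2.882 and 25.31. In WT MET/CAT livers it reached 199.4, 54.83 and 291.3, and in KO MET/CAT livers 249.3, 184.1 and 85.98. Every MET/CAT library exceeded every GFP library. Summed over libraries, 978 reads in MET/CAT and 101 in GFP livers gave a ratio of 11.3 after scaling (95% Poisson interval 9.21 to 14, for counting error only). Arntl rose in the average over genotypes (3.54, SE 0.52, adjusted p = 0.00246) and in KO livers alone (4.02, SE 0.73, adjusted p = 0.0211), whereas the difference of 3.06 in WT livers missed the threshold (adjusted p = 0.081). The call in KO livers ended without KO GFP replicate 1 or 2 or without KO MET/CAT replicate 1 or 2 (adjusted p = 0.0604 to 0.0772).

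Clock (chromosome 5, 76209868 to 76304792, minus strand), the usual partner of Arntl, moved less. Its GFP levels were 206.4, 133.7 and 247.7 in WT and 161.1, 130.6 and 263.1 in KO livers. Its MET/CAT levels were 491.4, 234.1 and 459.2 in WT and 487.7, 548.2 and 345.0 in KO livers. Of the 6 MET/CAT libraries, only WT MET/CAT replicate 2 fell within the GFP range. Clock rose by 1.16 in the average over genotypes (SE 0.25, adjusted p = 0.0184). The differences within a genotype, 0.98 for WT and 1.35 for KO, had adjusted p of 0.216 and 0.0752. The averaged call ended without WT GFP replicate 2 (adjusted p = 0.0506) or WT MET/CAT replicate 3 (adjusted p = 0.0534).

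Npas2 (chromosome 1, 39193731 to 39363236, plus strand), which can stand in for Clock, had the lowest mean per base of transcript of the activators in all 4 groups and was the only member listed at 0 in a library. WT GFP libraries held 6.981, 5.666 and 19.92 normalized reads, and KO GFP libraries 0, 1.921 and 5.424. The 0 of KO GFP replicate 1 allows up to 2.26 normalized reads (3 reads). WT MET/CAT libraries held 73.76, 21.09 and 102.3, all above the WT GFP range, while KO MET/CAT libraries held 4.817, 36.62 and 7.430. Because Npas2 met the filter on low values through MET/CAT libraries, where it was higher, its plasmid differences are descriptions only. The averaged difference of 2.31 did not pass (SE 0.63, adjusted p = 0.0599). The separate differences were 2.42 for WT and 2.21 for KO livers (both SE 0.89, adjusted p of 0.229 and 0.191). Npas2 thus had the same direction as Arntl in both genotypes, but 1 of 3 KO MET/CAT libraries lay within the KO GFP range.

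The period genes, whose proteins carry the negative arm, divided by member. Per3 (chromosome 4, 151003652 to 151044665, minus strand) measured 478.7, 261.8 and 362.9 with GFP in WT livers, and 648.2, 482.2 and 600.2 with GFP in KO livers. It measured 51.83, 138.1 and 24.46 in WT MET/CAT and 75.86, 65.91 and 118.9 in KO MET/CAT livers. The highest MET/CAT library, at 138.1, stood well below the lowest GFP library, at 261.8. Per3 was the only member called in both genotypes taken alone, although Per1, Per2, Nr1d1, Nr1d2 and Cry2 also had a lower mean log2 level in both. Its log2 differences were −2.65 for WT and −2.75 for KO (both SE 0.47, adjusted p of 0.0301 and 0.0148). The averaged difference of −2.70 had an adjusted p of 0.000951. The call in WT livers ended in 5 of 12 fits that left out a library (each WT GFP library, KO GFP replicate 1 and WT MET/CAT replicate 3, adjusted p = 0.0542 to 0.136) and in a fit of the 6 libraries compared (adjusted p = 0.0738). The call in KO livers ended without KO GFP replicate 1 or 3 or KO MET/CAT replicate 1 or 2 (adjusted p = 0.0517 to 0.0641).

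Per2 (chromosome 1, 91415982 to 91459324, minus strand) fell in the average over genotypes. Its WT GFP levels were 192.5, 143.9 and 139.5, and its KO GFP levels 394.5, 244.0 and 281.1. In MET/CAT livers it measured 38.87, 87.52 and 98.95 (WT) and 161.4, 86.83 and 94.47 (KO). Within each genotype the plasmid groups did not overlap, but KO MET/CAT replicate 1 lay within the WT GFP range. The averaged difference was −1.30 (SE 0.26, adjusted p = 0.013), and the separate values of −1.16 for WT and −1.44 for KO had adjusted p of 0.165 and 0.0713.

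Per1 (chromosome 11, 69095217 to 69109960, plus strand) did not pass. It spanned 433.9 to 1123 normalized reads with a median of 938.1 in GFP and 441.8 to 955.1 with a median of 573.4 in MET/CAT livers. The averaged difference was −0.37 (SE 0.26, adjusted p = 0.496), smaller than the spread between libraries of 1 group. Expressed within a library, the log2 ratio of Per3 to Per1 lay between −1.80 and 0.21 in GFP livers and between −5.23 and −1.67 in MET/CAT livers, overlapping only through WT MET/CAT replicate 2.

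Per1 and Per2 can also be induced by stress signals and by glucocorticoids, and genes of both kinds differed between the groups. Of 14 tested signal-inducible genes, 2 were called higher in MET/CAT livers on average and none lower, against 2.4% and 1.4% of all genes. Their median was 1.13. The summed level of all 16 listed genes was 3142 to 5727 in GFP, 3175 to 5838 in WT MET/CAT and 9363 to 31390 in KO MET/CAT livers. The highest sum belonged to KO MET/CAT replicate 1, which among the MET/CAT libraries had the highest Per2 (161.4) but, with 490.1, the second lowest Per1. Of 8 glucocorticoid-responsive genes, 4 were called higher and none lower (median 0.86), against the same 2.4% and 1.4% of all genes. Their sums were 59730 to 93110 in GFP and 74720 to 241700 in MET/CAT livers, and abundant genes weigh most in them. Mean Mt1 was 10620 (WT) and 8324 (KO) in GFP livers and 38440 and 76150 in MET/CAT livers. Mean Mt2 was 1536 and 2479 against 33410 and 45750, whereas mean Pck1 was 27430 and 46190 against 30660 and 36290. The part of stress signals or glucocorticoids in the levels of Per1 and Per2 was not tested.

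The cryptochromes, which complete the repressor complex, had opposite signs. Cry2 (chromosome 2, 92403646 to 92434043, minus strand) stood at 727.0, 606.3 and 602.0 in the WT GFP libraries, against 639.2, 659.9 and 578.6 in the KO GFP libraries. It measured 374.8, 298.4 and 453.6 in WT MET/CAT and 461.2, 559.7 and 514.8 in KO MET/CAT livers. All 6 MET/CAT libraries stood below all 6 GFP libraries, although KO MET/CAT replicate 2 came close to the lowest of them. Cry2 fell by a small amount on average (−0.54, SE 0.14, adjusted p = 0.0425), and the call survived 3 of the 12 fits with a library left out (adjusted p up to 0.125) and ended without the filter on low values (adjusted p = 0.0585). Cry2 shares 295 exon bases with D930015M05Rik, and whether reads were counted by strand is not stated in the labels.

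Cry1 (chromosome 10, 85131700 to 85185064, minus strand) did not pass. GFP livers had 134.6, 157.5 and 80.55 (WT) and 197.3, 155.6 and 157.3 (KO). In MET/CAT livers it measured 176.4, 105.4 and 344.7 (WT) and 594.9, 445.7 and 156.0 (KO), so that WT MET/CAT replicates 1 and 2 and KO MET/CAT replicate 3 stayed within the GFP range and the other 3 stood above it. The averaged difference was 0.83 (SE 0.34, adjusted p = 0.213). Within libraries the log2 ratio of Cry1 to Cry2 was −2.89 to −1.69 in GFP and −1.72 to 0.37 in MET/CAT livers, and it was above 0 only in KO MET/CAT replicate 1.

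Of the nuclear receptors of the loop, Nr1d2 was called between plasmids and Nr1d1 was not, and the difference between them was not tested. Nr1d2 (chromosome 14, 18204054 to 18239127, minus strand) stood at 1030, 857.8 and 891.3 in the WT GFP libraries and higher, at 1238, 1133 and 1471, in the KO GFP libraries. It measured 305.0, 741.3 and 182.3 in WT MET/CAT and 334.8, 288.7 and 691.0 in KO MET/CAT livers. No MET/CAT library reached the GFP range, and WT MET/CAT replicate 2 and KO MET/CAT replicate 3 came nearest. Nr1d2 fell by 1.53 on average (log2 difference −1.53, SE 0.29, adjusted p = 0.0111), and the separate values of −1.42 for WT and −1.65 for KO had adjusted p of 0.139 and 0.0719.

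Nr1d1 (chromosome 11, 98767932 to 98775333, minus strand) varied widely between replicates of most groups. WT GFP libraries held 506.6, 191.5 and 926.8, and KO GFP libraries 306.4, 321.8 and 257.6. WT MET/CAT libraries held 543.2, 1096 and 133.4, and KO MET/CAT libraries 48.17, 73.23 and 364.1. The WT libraries of either plasmid covered a wide range, while KO MET/CAT replicates 1 and 2 were the lowest of all 12. The averaged plasmid difference was −0.74 (SE 0.56, adjusted p = 0.535). The separate values were −0.06 for WT and −1.42 for KO livers (both SE 0.79, adjusted p of 0.981 and 0.322). Nr1d1 shares 263 exon bases with its neighbour Thra, a thyroid hormone receptor gene, for which the averaged difference was 0.21 (adjusted p = 0.766).

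**Figure D2:**
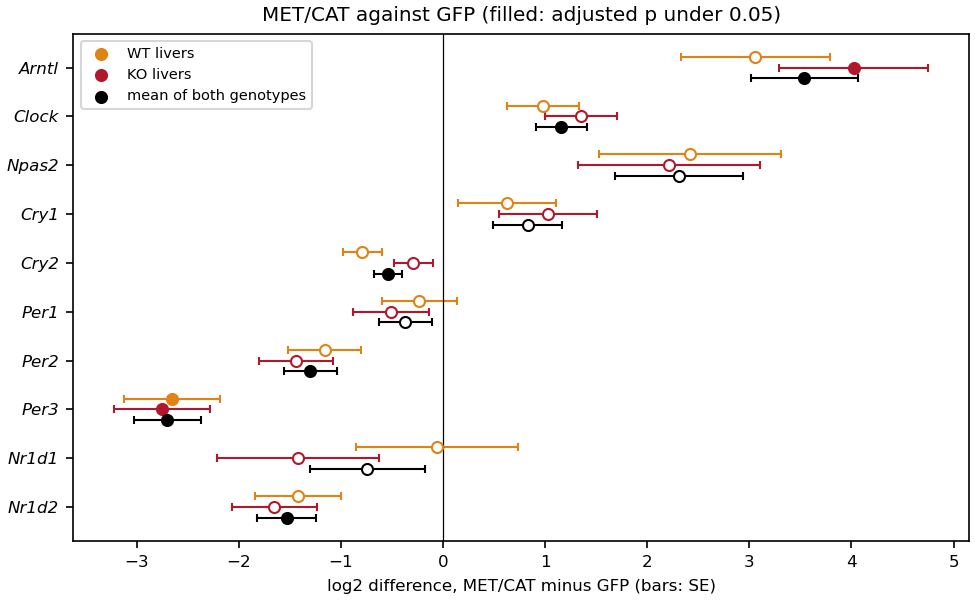
Difference between MET/CAT and GFP livers for each core clock gene (horizontal axis, log2 of normalized reads + 1, MET/CAT minus GFP; bars, SE) in WT livers, in KO livers and averaged over genotypes. Filled points passed the test; Per3 is filled in all 3 comparisons, Arntl in KO livers and in the average, and Clock, Cry2, Per2 and Nr1d2 only in the average.

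Within a single genotype, fewer members passed. In WT livers 1 of 10 was called (Per3), against 0.339% of all genes. A low Per3 in MET/CAT livers of wild type mice was known when the list was drawn up, so this count is a description only. In WT livers 6 of 10 had plasmid groups that did not overlap, against 20.7% of all genes. Npas2, which met the filter through MET/CAT libraries, was among the 6. DESeq2, a count model run on the recovered reads, called 3 members there (4.09% of all genes), and limma with library quality weights called 6 (18.9% of all genes). In KO livers 2 of 10 were called (Arntl and Per3), against 1.25% of all genes, and 6 of 10 did not overlap, against 25%. DESeq2 called 5 members in KO livers (6.69% of all genes), and quality weights 6 (11.8%). A member that passed in KO and not in WT livers is not thereby shown to differ between them. The test of that difference, the interaction of genotype and plasmid, called 0 of 10 members (adjusted p = 0.381 to 0.956 by limma, 0 members at an unadjusted p under 0.05), against 0% of all genes. There edgeR called 0 members (0% of all genes) and DESeq2 0 (1.12%). The largest interactions were −1.36 for Nr1d1 (SE 1.11) and 0.95 for Arntl (SE 1.03).

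Levels can be compared between genes per kilobase of annotated exons. In WT GFP livers the repressors led: Nr1d1 had 176 ± 120 normalized reads per kilobase (SD, n = 3), Nr1d2 171 ± 16.9, Per1 140 ± 55.3 and Cry2 102 ± 11.2, and the ranges of neighbours in this order overlapped. A clear step led down to Per3 at 38.3 ± 11.3, Cry1 at 37.2 ± 11.8 and Per2 at 27.1 ± 5.02, which again overlapped. Clock followed at 14.3 ± 4.20, and Arntl at 2.46 ± 1.40 and Npas2 at 2.27 ± 1.64 came last without a gap between them. In KO GFP livers Nr1d2 led at 237 ± 31.9, and the last 3 were the same genes.

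The order per kilobase was different in MET/CAT livers. In KO MET/CAT livers Cry1 came first at 119 ± 66.8 and Per1 next at 103 ± 19.0, with overlapping ranges, while Nr1d1 stood at 52.6 ± 57.1, Arntl at 23.0 ± 10.9 and Per3 at 9.04 ± 2.93. In WT MET/CAT livers Nr1d1 came first at 192 ± 157, but its range of 43.4 to 356 contained that of Per1 (78.5 to 170). Arntl stood there at 24.2 ± 15.8, and Per3 came last at 7.44 ± 6.18, with a range that overlapped that of Per2. Arntl per kilobase was thus below Per3 in every GFP library and on average above it in both MET/CAT groups.

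The MET/CAT libraries were not uniform, and the same libraries stood apart for several members. WT MET/CAT replicate 2 and KO MET/CAT replicate 3 had the lowest Arntl of the 6 MET/CAT libraries (54.83 and 85.98 normalized reads). They also had the highest Nr1d2 (741.3 and 691.0) and the highest Per3 (138.1 and 118.9). The log2 ratio of Arntl to Nr1d1 within a library was −6.38 to −3.30 in GFP livers. It was 1.12, 2.35 and 1.32 in WT MET/CAT replicate 3 and KO MET/CAT replicates 1 and 2, but −4.30 in WT MET/CAT replicate 2, −2.07 in KO MET/CAT replicate 3 and −1.44 in WT MET/CAT replicate 1. In this ratio WT MET/CAT replicate 2 thus lay within the GFP range.

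Because the GFP and MET/CAT libraries formed separate clusters in Arntl, the relation of each member to Arntl was computed within each plasmid, over 6 libraries of both genotypes, with exact permutation p and adjustment over the 18 relations. None passed (lowest adjusted p = 0.15). Within MET/CAT livers Nr1d2 had r = −0.94 and rho = −0.77 (exact permutation p = 0.0125 and 0.103), and Per3 had r = −0.85 and rho = −0.83 (exact p = 0.0306 and 0.0583). Without the 2 libraries farthest from the median Arntl, r was −0.63 and −0.64 over 4 libraries. Clock had r = 0.90 in both sets, with rho = 0.89 in GFP livers (exact p = 0.0167 for r and 0.0333 for rho) and rho = 0.43 in MET/CAT livers (exact p = 0.0333 and 0.419). The relation of Clock in MET/CAT livers rested on the farthest libraries, since r was −0.87 without them, whereas in GFP livers it stayed at 0.90. Nr1d1 had r = −0.74 and rho = −0.60 in MET/CAT livers (exact p = 0.103 and 0.242), and r was −0.23 without the farthest 2. In GFP livers Per3 and Nr1d2 had r = −0.08 and −0.04, and rho = −0.31 and −0.14 (exact p of r = 0.872 and 0.925).

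**Figure D3:**
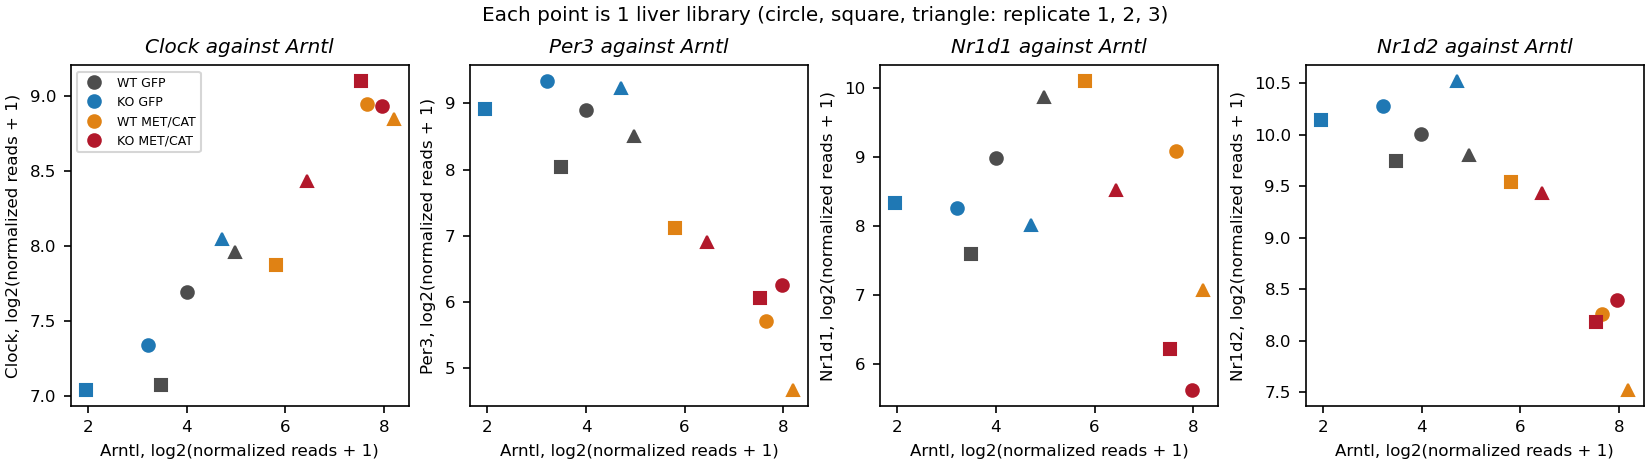
Level of Clock, Per3, Nr1d1 and Nr1d2 (vertical axes) against Arntl (horizontal axes) in the 12 libraries, all as log2 of normalized reads + 1, coloured by group. The GFP and MET/CAT libraries form separate clusters along Arntl, and WT MET/CAT replicate 2 and KO MET/CAT replicate 3 are the MET/CAT points nearest to the GFP cluster.

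Loss of Sirt2 was accompanied by no called change in the loop. In GFP livers 0 of 10 members passed (limma, against 0.00721% of all genes), and 2 had an unadjusted p under 0.05, with 0 called by edgeR (0.00721% of all genes) and 0 by DESeq2 (0.851%). Npas2 was lower in all 3 KO GFP than in all 3 WT GFP libraries (−1.96, SE 0.89, adjusted p = 0.316), from 8 reads against 35 in all, a ratio of 0.200 (95% Poisson interval 0.0801 to 0.439, for counting error only). Because Npas2 met the filter on low values through WT libraries, where it was higher, its differences between genotypes here and below are descriptions only. Per2 was higher in all 3 KO GFP libraries (0.93, SE 0.36, adjusted p = 0.29). Per3 and Nr1d2 were also higher in every KO GFP library, by 0.68 and 0.46 (adjusted p = 0.469 and 0.581). Groups that do not overlap were thus found for 4 of 10 members, against 22.1% of all genes. With library quality weights, which gave WT GFP replicate 1 a weight of 7.25 and KO GFP replicate 3 one of 0.24, Npas2 and Per2 were called, as were 33% of all genes.

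**Figure D4:**
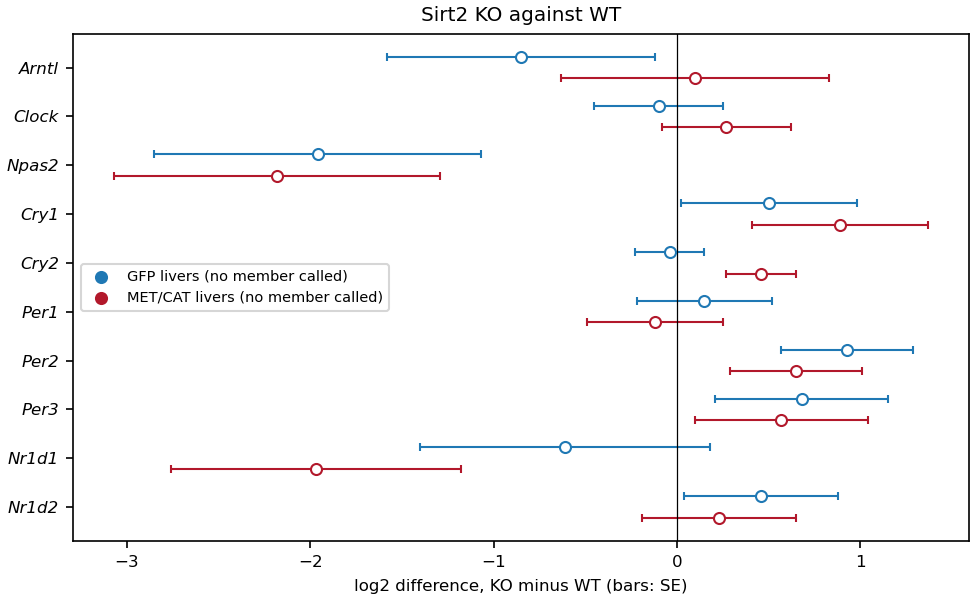
Difference between Sirt2 KO and WT livers for each core clock gene (horizontal axis, log2 of normalized reads + 1, KO minus WT; bars, SE) in GFP and in MET/CAT livers, 3 libraries against 3. No point passed the test; Npas2 lies below 0 in both comparisons, at −1.96 and −2.18.

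In MET/CAT livers again 0 of 10 members passed (limma, against 0.00721% of all genes; edgeR 0, against 0.00721%; DESeq2 0, against 0.245%), and 3 had an unadjusted p under 0.05. Npas2 differed by −2.18 (SE 0.89, adjusted p = 0.603), from 46 reads against 186, but KO MET/CAT replicate 2 lay within the WT range. Nr1d1 differed by −1.97 (SE 0.79, adjusted p = 0.598), with the groups overlapping through KO MET/CAT replicate 3 and WT MET/CAT replicate 3. Thra, which shares exon bases with Nr1d1, differed by −0.64 (adjusted p = 0.708). Cry2 was higher in every KO MET/CAT library than in every WT MET/CAT library (0.46, SE 0.19, adjusted p = 0.605), the only member of 10 whose groups did not overlap, against 13.8% of all genes. Averaged over plasmids 0 members were called (limma, against 0.0144% of all genes; edgeR 0, against 0.00721%; DESeq2 0, against 0.281%). There 3 had an unadjusted p under 0.05, Npas2 (−2.07), Per2 (0.79) and Nr1d1 (−1.29), with adjusted p of 0.536, 0.548 and 0.592. None of the 10 had 6 KO libraries clear of 6 WT libraries, against 0.382% of all genes.

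Markers of other liver cells are given beside these comparisons. No marker of any list was called between KO and WT livers. All 6 neutrophil markers were called higher in MET/CAT livers on average (median 3.27), against 2.4% of all genes. Their sum was 56.95 to 173.4 normalized reads in GFP and 312 to 3051 in MET/CAT livers, with Mmp8 at 0 in WT GFP and Cxcr2 at 0 in KO GFP libraries. Mmp8, Cxcr2 and Retnlg met the filter on low values through MET/CAT libraries, where they were higher. Their highest GFP values were 2.882, 2.992 and 15.86. Of 12 Kupffer cell and macrophage markers, all 12 had lower values in KO GFP than in WT GFP livers and none was called (median −1.43). The sums of these markers were in the WT GFP libraries 8916 to 11980, in the KO GFP libraries 1736 to 5615, with no marker at 0, and in the MET/CAT libraries 6879 to 10710. On average 1 of the 12 was called higher in MET/CAT livers (median 0.29), against 2.4% of all genes. The genotypes differed in sign: with MET/CAT, 10 of the 12 had lower values in WT livers (median −0.32). In KO livers all 12 had higher values (median 1.04). The interaction was above 0 for all 12 (median 1.62), and none was called. The 7 tested lymphocyte markers also all had lower values in KO GFP than in WT GFP livers (median −1.11), and 8 listed ones summed to 52.43 to 133.3 against 151.8 to 200.1. The 5 cholangiocyte markers all had higher values in MET/CAT livers on average (median 0.70), and 1 of them was called, against 2.4% of all genes. Their sums were 186.2 to 440.9 in GFP and 395.4 to 1248 in MET/CAT livers. Of 8 endothelial and 8 stellate markers none was called in any comparison. None of the 9 hepatocyte markers was called in any comparison. The part of other cells in the levels of the clock genes was not tested.

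Beyond the loop itself, a list of 23 other clock genes held 22 that were tested, Rorb being too low. Averaged over genotypes 1 of the 22 was called higher in MET/CAT livers and 5 lower, against 2.4% and 1.4% of all genes. Their median was −0.29, against 0.02 over all genes. The D-box activators fell: Dbp by 4.73 (log2 difference −4.73, SE 0.79, adjusted p = 0.00576), Tef by 1.56 (−1.56, adjusted p = 0.00641) and Hlf by 0.59 (−0.59, adjusted p = 0.0308). Nfil3, the repressor at D-boxes, rose by 2.21 (SE 0.27, adjusted p = 0.000951). The part of these genes in the level of Per3 was not tested. The deubiquitinase gene Usp2 (−1.35, adjusted p = 0.0481) and Nampt, an enzyme gene on the route to the NAD that sirtuins consume (−0.85, adjusted p = 0.0188), fell as well. With libraries left out in turn, the calls of Dbp, Tef and Nfil3 held in all 12 fits, that of Nampt in 9, that of Hlf in 4 and that of Usp2 in 2.

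Dbp, a direct target of the Arntl and Clock pair, was the most variable of these in MET/CAT livers. It spanned 2058 to 2730 normalized reads over the 6 GFP libraries. It measured 68.78, 648.5 and 20.01 in WT MET/CAT and 75.86, 15.69 and 515.9 in KO MET/CAT livers, so that the libraries with the lowest Arntl, WT MET/CAT replicate 2 and KO MET/CAT replicate 3, had the highest Dbp. Within KO livers alone Nfil3 rose (2.80, adjusted p = 0.00579) and Nampt fell (−1.21, adjusted p = 0.0386), against 1.25% of all genes called. Within WT livers 0 of 22 were called, against 0.339% of all genes. Between KO and WT livers, and in the interaction, 0 of the 22 were called by limma, against at most 0.0144% of all genes.

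**Figure D5:**
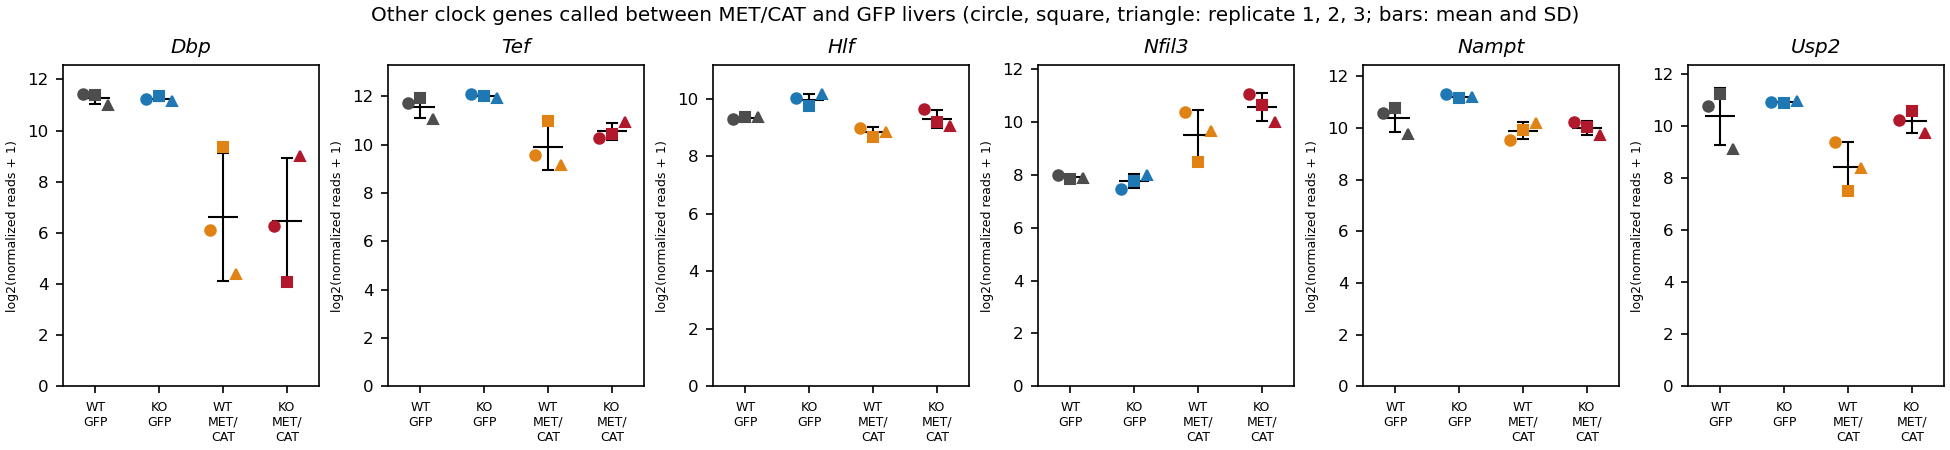
Level of the 6 other clock genes called between MET/CAT and GFP livers in each of the 12 libraries (vertical axis, log2 of normalized reads + 1; horizontal axis, the 4 groups). Points are libraries, and bars give the mean and SD of 3 libraries; Dbp falls from 2058 to 2730 normalized reads in GFP livers to 15.69 to 648.5 in MET/CAT livers, and Nfil3 goes the opposite way.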

How the data were processed

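RNA was sequenced from mouse liver in 12 libraries. The submitters' processing notes name HISAT2 2.0.4 and HTSeq 0.11.2, with build GRCm38. Kit, strand setting and normalization tool are not stated in the labels. The values the authors deposited are a normalized signal, which proved to be read counts per gene over a constant for each library. Dividing by the value of a read gave whole reads for 100% of the values (tolerance 0.001 reads). In 2 libraries that value lies within 0.005 of 1, so whole values there show nothing. Positions came from GENCODE M21 and promoters from RefSeq, both on GRCm38 (promoters p6).

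Differences were tested with limma 3.58.1 (R 4.3.3) and its trend option on log2(value + 1), for genes of at least 10 in at least 3 libraries, with 4 group means over all 12 libraries and Benjamini-Hochberg adjustment over all 13871 genes. Alternatives were pseudocounts of 0.5 and 8, filters of 50 or of any read, equal totals, quantile normalization, removal of the trend with transcript length, library quality weights, DESeq2 1.42.0 and edgeR 4.0.16 (both on recovered reads), a fit of the libraries compared, a replicate block and each library left out. The fits were tested on simulated data. Members, lists, motifs and tests were chosen with earlier results of these data known. All 10 members were tested in every comparison, but the values of every member are not written out for the genotype comparisons and the interaction. Other clock genes were named where called. A test of the members' relation to Arntl over all 12 libraries was planned but is not given, because the plasmids form separate clusters. The ranking of the genes most like a member does use all 12 and carries no test. Figures were drawn with matplotlib 3.10.9.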

Additional observations from a re-analysis of the deposited data

How the results depend on the processing

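No member's difference with an unadjusted p under 0.05 changed its direction under the alternatives run. The averaged plasmid comparison called 6 members and gave 4 to 7 when a library was left out and 5 to 8 otherwise. Over all genes, 192 to 448 were called higher and 85 to 272 lower when a library was left out. Otherwise 224 to 1282 were called higher and 141 to 1095 lower. Arntl, Per2, Per3 and Nr1d2 were called in all 12 fits that left out a library and in all 11 other alternatives. Within WT livers the count of 1 became 6 with library quality weights, 3 with DESeq2 and 0 in a fit of only the libraries compared, and it ranged from 0 to 3 without a library. It was 0 without any WT GFP library, KO GFP replicate 1 or WT MET/CAT replicate 3, 2 without KO GFP replicate 3 and 3 without WT MET/CAT replicate 2. Within KO livers the count of 2 became 6 with weights and 5 with DESeq2, and it ranged from 0 to 3. It was 0 without KO GFP replicate 1 or KO MET/CAT replicate 1 or 2, and 1 without KO GFP replicate 2 or 3. With a library left out, calls over all genes also varied, from 2 to 225 higher and 1 to 147 lower within WT livers. Within KO livers they varied from 38 to 179 higher and 9 to 84 lower. For KO against WT, weights called 2 members in GFP livers, against 33% of all genes. Averaged over plasmids weights called 1 member (Npas2), with 51 genes called higher and 109 lower out of 13871. The cause of these changes was not tested. Over the alternatives, such differences of the members and Sirt2 gave 689 tests that kept their side of the threshold, 31 that gained a call and 29 that lost it. For the 18 relations to Arntl, 5 alternative values lay outside the 95% interval of r and 157 inside. Equal library totals shifted the median of all genes in the averaged plasmid comparison from 0.02 to −0.14 and the calls over all genes from 333 higher and 194 lower to 224 higher and 424 lower, but reversed no member. The replicate numbers did not pair the libraries: of 18 same-number pairs 5 had a correlation over 0.1 (range −0.195 to 0.28), and 5 of 12 libraries correlated best with their own number. With the replicate block 5 members were called in the averaged plasmid comparison (Cry2 lost its call), 1 in WT and 2 in KO livers. Depth limited Npas2 most, with 275 reads over all libraries.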

Other observations

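Genes most like 3 members across the 12 libraries were listed by Pearson r of log2 levels among 8386 candidates with a mean of at least 100 normalized reads. These values pool the separate GFP and MET/CAT clusters, so that a difference between the plasmids alone can give a high r, and they are descriptions with no test. Nearest to Arntl were Clpx, a mitochondrial unfoldase (r = 0.964, rho = 0.979), Acnat2 (r = 0.948), Lrfn3 (r = 0.940), Wbp1l (r = 0.926) and Rcan2 (r = 0.923). Clpx averaged 1097 normalized reads in GFP and 3984 in MET/CAT libraries. Most opposite to Arntl were Slc5a6, a vitamin transporter (r = −0.966, rho = −0.979), Pcsk4 (r = −0.929), Ppif (r = −0.926), Map2k6 (r = −0.917) and Tef (r = −0.915). Slc5a6 averaged 320.2 in GFP and 112.6 in MET/CAT libraries.

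Per3 shared several of these genes. Its highest were Fnip2 (r = 0.949), Tef (r = 0.947), Fam169b (r = 0.947), Prkd3 (r = 0.940) and Slc5a6 (r = 0.940), and its lowest were Ddx28 (r = −0.962), Clpx (r = −0.925), Hspb8 (r = −0.917), Tubb6 (r = −0.916) and Sf3a3 (r = −0.913). Nr1d1, whose plasmid difference did not pass the test, had a different set. Its highest were Mvk (r = 0.899) and Dhcr7 (r = 0.884), both enzymes of cholesterol synthesis, with Serpinb9 (r = 0.890), Sri (r = 0.877) and Rps6ka4 (r = 0.876). Its lowest were Gusb (r = −0.865), Reep3 (r = −0.862), Dcaf10 (r = −0.849), Acadsb (r = −0.848) and Plaa (r = −0.841).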
